A study of Mus musculus with 6 samples.

Results

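The genes described here encode the integrins, the laminin chains and 4 adhesive glycoproteins of the extracellular matrix. They were taken from the gene names of the expression table. Every gene named as an integrin alpha or beta subunit or as a laminin alpha, beta or gamma chain was kept, and Nid1, Nid2, Fn1 and Sned1 were added. This gave 41 of the 23557 genes in the table: 8 leukocyte integrin subunits, 18 other integrin subunits, 11 laminin chains and the 4 glycoproteins. The rule itself used gene names alone, but the members were chosen with earlier results of these data known.

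The study treated BALB/c mice bearing tumors of CT26, a murine colorectal carcinoma cell line, with H89, an inhibitor of protein kinase A. Female mice aged 7 weeks received 500000 CT26 cells under the skin, and from day 6 they were injected in the peritoneum 2 times a week with H89 at 10 mg/kg or with NaCl. Whole tumors were removed on day 14 and their RNA was sequenced, with 3 tumors per group, each listed as a separate tumor. Mice of both groups were immunocompetent and carried the same cell line, and the labels name no genetic change in either group.

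Integrins are cell-surface receptors made of an alpha and a beta subunit. They bind matrix proteins or receptors on other cells and link them through talin and kindlin to the actin cytoskeleton, and several subunits are used mainly by leukocytes for adhesion and migration. Laminins are trimers of an alpha, a beta and a gamma chain that form the sheet of the basement membrane, where nidogens connect them to the collagen IV network. Fibronectin, encoded by Fn1, is a ligand of alpha5beta1 and of the alphav integrins, and Sned1 encodes a secreted matrix protein.

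Among the 41 genes, 34 reached a mean of 0.5 CPM (counts scaled to each tumor's library total) and were tested with edgeR's quasi-likelihood test. Sned1 and Itgae rose in H89-treated tumors at a Benjamini-Hochberg adjusted p under 0.05 over all 13118 genes tested, and no member fell. In all genes tested, 0.861% were called higher and 0.724% lower at this threshold, 1.59% in either direction. DESeq2 called 6 members, all higher and including both, beside 1392 of the 18837 genes it tested. At an unadjusted p under 0.05, 7 members were higher (Itgal, Itgax, Itgae, Itga4, Itgb2, Nid1 and Sned1), 1 was lower (Itgb7) and 26 passed in neither direction, beside 13.1% higher and 11.9% lower of all genes. Of the 8 members that passed, 6 were leukocyte integrins and 2 were glycoproteins, and no laminin chain and none of the other integrin subunits was among them.

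Promoter sequences were available in the RefSeq table for 25 of the 41 genes, among them 5 of the 8 members with an unadjusted p under 0.05. These 5 are shown because their genes are among the 8 that passed the unadjusted threshold. Each is given 5′ to 3′ on the strand of its gene in build GRCm38.p6 and ends before the annotated start of the gene. Capitals mark a GC box (GGGCGG), the site of Sp1-type factors, or a PU box (GAGGAA), the core of sites for myeloid ETS factors such as PU.1, on either strand.
Sned1, chr1:93235647-93235840, plus strand: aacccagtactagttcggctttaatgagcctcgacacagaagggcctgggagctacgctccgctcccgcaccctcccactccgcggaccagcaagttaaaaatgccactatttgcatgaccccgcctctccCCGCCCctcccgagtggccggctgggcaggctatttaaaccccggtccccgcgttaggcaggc
Nid1, chr13:13437352-13437550, plus strand: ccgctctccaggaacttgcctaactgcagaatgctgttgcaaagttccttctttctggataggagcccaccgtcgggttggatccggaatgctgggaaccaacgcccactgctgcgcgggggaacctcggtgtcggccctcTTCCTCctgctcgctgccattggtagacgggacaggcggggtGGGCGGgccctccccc
Itga4, chr2:79255176-79255425, plus strand: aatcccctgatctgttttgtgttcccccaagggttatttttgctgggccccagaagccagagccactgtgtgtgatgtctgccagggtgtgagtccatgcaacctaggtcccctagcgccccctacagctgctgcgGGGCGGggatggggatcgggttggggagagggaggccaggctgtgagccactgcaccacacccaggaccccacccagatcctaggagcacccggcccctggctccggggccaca
Itgax, chr7:128129300-128129546, plus strand: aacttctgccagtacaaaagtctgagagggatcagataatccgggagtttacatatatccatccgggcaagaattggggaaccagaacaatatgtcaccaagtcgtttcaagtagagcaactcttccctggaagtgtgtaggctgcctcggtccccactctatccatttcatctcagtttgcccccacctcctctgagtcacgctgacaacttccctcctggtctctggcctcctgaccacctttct
Itgb7, chr15:102231945-102232185, minus strand: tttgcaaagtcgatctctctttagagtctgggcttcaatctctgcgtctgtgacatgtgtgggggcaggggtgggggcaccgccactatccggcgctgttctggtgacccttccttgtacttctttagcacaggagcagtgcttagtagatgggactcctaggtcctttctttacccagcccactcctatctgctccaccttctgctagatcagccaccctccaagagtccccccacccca

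These 2 motifs and the core of the cyclic AMP response element were searched in the 250 bases upstream of each RefSeq start on both strands, and none overlapped another in the 5 sequences shown. That core (TGACG), bound by CREB, a substrate of protein kinase A, was in 17.8% of all 32851 promoters and in 4 of the 28 promoters of members, those of Itga9, Itgb1, Itgb6 and Lama5. A GC box was in 32.7% of all promoters and in 11 of the 28, including those of Sned1, Nid1 and Itga4. A PU box was in 23.3% of all promoters and in 14 of the 28, of which only that of Nid1 belongs to the 5 shown. The windows of Itgax and Itgb7 held none of the 3 motifs. These letters describe the windows and do not show binding.

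Total estimated counts were between 27067349 and 31958793 per tumor, so 1 count equalled 0.0313 to 0.0369 CPM before TMM scaling, and no 2 tumors held the same values. All CPM values of genes are divided by TMM factors, which lay between 0.956 and 1.06. Among the markers of CT26 cells, Cd9 and Mki67 were abundant, at 308 to 406 and 213 to 309.6 CPM, while the epithelial genes Epcam, Krt8 and Cdx1 did not exceed 1.18, 2.17 and 0.0304 CPM. Krt18, also epithelial, was at 13.2 to 23.5 CPM in NaCl and 7.75 to 8.31 CPM in H89-treated tumors (log2 fold change -1.04, edgeR adjusted p = 0.0653). H89 tumor 1 stood apart in skeletal muscle genes, whose summed level over 8 genes was 19.6 CPM in it and 1.4 to 2.99 CPM in the other 5 tumors. It also held 7.45 CPM of Cfd, an adipocyte gene that did not exceed 0.447 CPM elsewhere. H89 tumor 3 had the highest level of Ptprc, which encodes the pan-leukocyte protein CD45.

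Itgae encodes alphaE (CD103), which pairs with beta7, binds E-cadherin and is found on tissue-resident T cells and some dendritic cells. Its level was 1.12, 1.19 and 1.13 CPM in NaCl tumors 1 to 3 and 2.39, 2.68 and 2.77 CPM in H89 tumors 1 to 3. All H89-treated tumors lay above all NaCl tumors, with a gap wider than the spread within either group. The log2 fold change was 1.18 ± 0.21 (SE, n = 3 per group; edgeR adjusted p = 0.0443), from counts of 31 to 32 and 67 to 91. In RNA of whole tumors, a change in the number of cells of a type and a change in RNA per cell cannot be told apart. Leaving out any 1 of the 6 tumors kept the fold change between 1.14 and 1.24, with adjusted p-values of 0.0663 to 0.145.

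Itga4, like Itgae, encodes a partner of beta7, and both had positive fold changes where Itgb7 had a negative one. The alpha4 subunit encoded by Itga4, used by lymphocytes to bind VCAM1 and MAdCAM1, was measured at 15.5, 22.4 and 18.2 CPM in NaCl and 27.9, 27.1 and 35.4 CPM in H89-treated tumors. Its groups did not overlap, and its log2 fold change was 0.69 ± 0.16 (edgeR unadjusted p = 0.0031, adjusted p = 0.0729). Up to 0.404 of a count separated its values from whole numbers, and its exons overlap Cerkl on the other strand, which did not exceed 1.97 CPM. Itgb7 was at 128, 129.9 and 116 CPM in NaCl and 117, 82.7 and 99.5 CPM in H89-treated tumors. H89 tumor 1 lay within the NaCl range, and H89 tumors 2 and 3 lay below it. The log2 fold change of Itgb7 was -0.33 ± 0.13 (edgeR unadjusted p = 0.0355, adjusted p = 0.173). The unadjusted p exceeded 0.05 without NaCl tumor 1 (0.0848), NaCl tumor 2 (0.093), H89 tumor 2 (0.115) or H89 tumor 3 (0.0692), and without H89 tumor 2 the fold change was -0.21. Per kilobase of merged exons, Itgb7 stood at a mean of 40.5 CPM over the 6 tumors, Itga4 at 1.75 CPM and Itgae at 0.41 CPM.

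**Figure D1:**
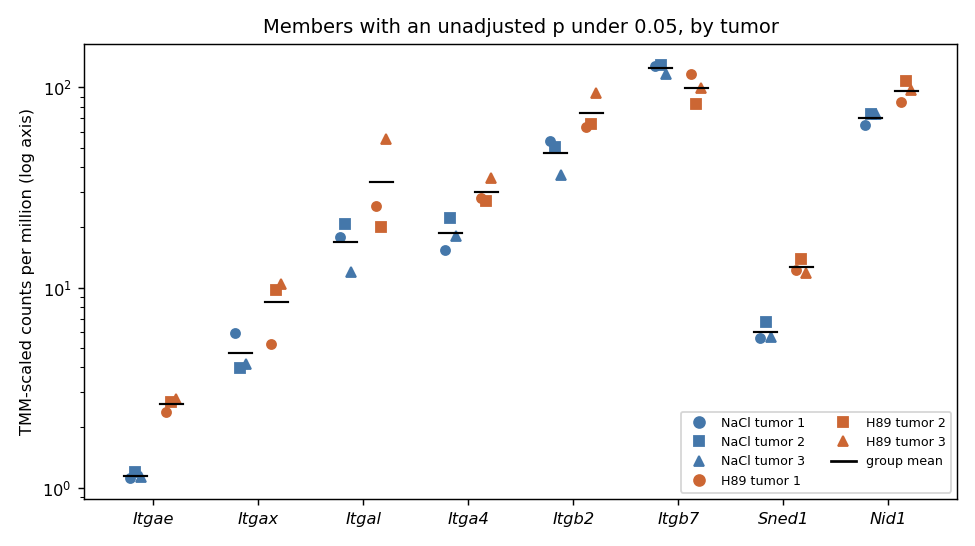
TMM-scaled CPM on a log axis for the 8 members with an unadjusted p under 0.05, with 1 symbol per tumor and a line at each group mean. Itgae, Itga4, Itgb2, Sned1 and Nid1 show no overlap between NaCl and H89-treated tumors, while H89 tumor 3 alone carries the highest Itgal value of 55.5 CPM.

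The beta2 family is made of Itgb2 and the alpha subunits Itgal, Itgam, Itgax and Itgad, which form receptors such as LFA-1 and Mac-1 on lymphocytes and myeloid cells. Itgb2 itself was at 53.7, 50.5 and 36.5 CPM in NaCl and 63.2, 65.3 and 94.3 CPM in H89-treated tumors. The groups did not overlap, and the log2 fold change was 0.66 ± 0.19 (edgeR unadjusted p = 0.0092, adjusted p = 0.1). Itgal, the alpha subunit of LFA-1, was at 17.9, 20.8 and 12.0 CPM in NaCl and 25.6, 20.01 and 55.5 CPM in H89-treated tumors. H89 tumor 2 lay inside the NaCl range and H89 tumor 3 stood far above the others. In edgeR's quasi-likelihood test the log2 fold change was 1.00 ± 0.38 (unadjusted p = 0.0301, adjusted p = 0.161). It was 0.43 without H89 tumor 3 (edgeR unadjusted p = 0.11, adjusted p = 0.346), and the unadjusted p was 0.06 without NaCl tumor 1 and 0.0937 without NaCl tumor 3.

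Itgax, which encodes CD11c of dendritic cells and some macrophages, was at 5.94, 3.95 and 4.17 CPM in NaCl and 5.24, 9.76 and 10.4 CPM in H89-treated tumors. H89 tumor 1 was within the NaCl range and the other H89-treated tumors were above it. The log2 fold change was 0.86 ± 0.29 (edgeR unadjusted p = 0.0179, adjusted p = 0.127). Its unadjusted p exceeded 0.05, at 0.0553 to 0.0647, when NaCl tumor 2, NaCl tumor 3, H89 tumor 2 or H89 tumor 3 was left out. Itgam, which encodes CD11b of myeloid cells, ran from 28.4 to 48.0 CPM in NaCl and was at 17.4, 72.6 and 135 CPM in H89-treated tumors. H89 tumor 1 was below every NaCl tumor and the other H89-treated tumors were above them. Over all tumors the log2 fold change was 0.96 ± 0.59 (edgeR adjusted p = 0.346). Without H89 tumor 1 it was 1.43 (edgeR adjusted p = 0.0706), and without H89 tumor 3 it was 0.22 (edgeR adjusted p = 0.839). Itgad, with 1 to 6 counts per tumor, was not tested.

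Over the 7 tested leukocyte integrins, 5 were higher, 1 was lower and 1 passed in neither direction at an unadjusted p under 0.05. In all genes tested, 13.1% were higher and 11.9% lower at this threshold. The median log2 fold change of the 7 integrins was 0.86, beside 0.004 over all genes tested, and it was 0.45 without H89 tumor 3. The summed level of 7 T cell genes was 10.4 to 22.9 CPM in NaCl and 22.4 to 54.6 CPM in H89-treated tumors, and 5 of the 7 passed an unadjusted p under 0.05, all higher. The 8 macrophage genes summed to 1321 to 2079 CPM in NaCl and 1673 to 1981 CPM in H89-treated tumors, with none at that threshold. Of 5 tested neutrophil genes, 1 was higher and 1 lower, their list summed to 17.9 to 22.0 and 20.8 to 35.3 CPM, and Ly6g was at 0 in all 6 tumors. The part of these cell types in the integrin values was not tested.

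Ptprc, a gene of all leukocytes, was at 25.2, 31.5 and 29.9 CPM in NaCl and 48.2, 47.2 and 78.8 CPM in H89-treated tumors. The Ptprc log2 fold change was 1.01 ± 0.21 (edgeR adjusted p = 0.0547), the highest of the 6 pan-leukocyte genes. Cd52 was at 0.97 (edgeR unadjusted p = 0.0258), and Coro1a (0.33), Lcp1 (0.10), Cd53 (0.05) and Laptm5 (-0.03) did not pass an unadjusted p under 0.05. Each leukocyte integrin was divided by Ptprc in the same tumor, and the log2 ratios were compared with a two-sided exact permutation test, which with 3 against 3 tumors cannot give a p below 0.1. The ratio of Itgb7 was 2.35, 2.05 and 1.96 in NaCl and 1.28, 0.81 and 0.34 in H89-treated tumors, a difference of -1.31 (exact p = 0.1). The ratio of Itga4 was -0.70, -0.49 and -0.72 in NaCl and -0.79, -0.80 and -1.15 in H89-treated tumors, a difference of -0.28 (exact p = 0.1). For both genes every H89-treated tumor lay below every NaCl tumor. Because Ptprc itself rose by 1.01 without overlap, the ratio falls also for a gene whose CPM did not change. It fell for Itga4 although the CPM of Itga4 rose. The share of all genes that separate in this ratio was not computed. Per kilobase of merged exons, Ptprc stood at a mean of 2.37 CPM over the 6 tumors and Itgb7 at 40.5 CPM. Which cells held the Itgb7 RNA was not tested.

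For the other 5 genes the groups overlapped. The differences in log2 ratio were -0.08 for Itgal, -0.42 for Itgam, -0.16 for Itgax, 0.21 for Itgae and -0.31 for Itgb2, with exact permutation p-values of 0.3 to 0.9. Adjusted over the 7 genes, all p-values were between 0.35 and 0.9. With 0.5 CPM added to both levels the difference for Itgae was -0.05, so its direction relative to Ptprc depended on that choice. Relative to the mean log2 CPM of 6 pan-leukocyte genes in place of Ptprc, Itgb7 remained lower in every H89-treated tumor (difference -0.73). Itga4 lay higher in every H89-treated tumor (0.30). The differences of Itgal (0.49), Itgam (0.16), Itgax (0.42) and Itgb2 (0.26) also turned positive, with overlapping groups, so the direction for these 5 genes depended on the reference. Relative to that mean, Itgae also lay higher in every H89-treated tumor (0.79). The 6 genes summed to 578 to 656 CPM in NaCl and 586 to 873 CPM in H89-treated tumors, a sum that was not the reference.

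**Figure D2:**
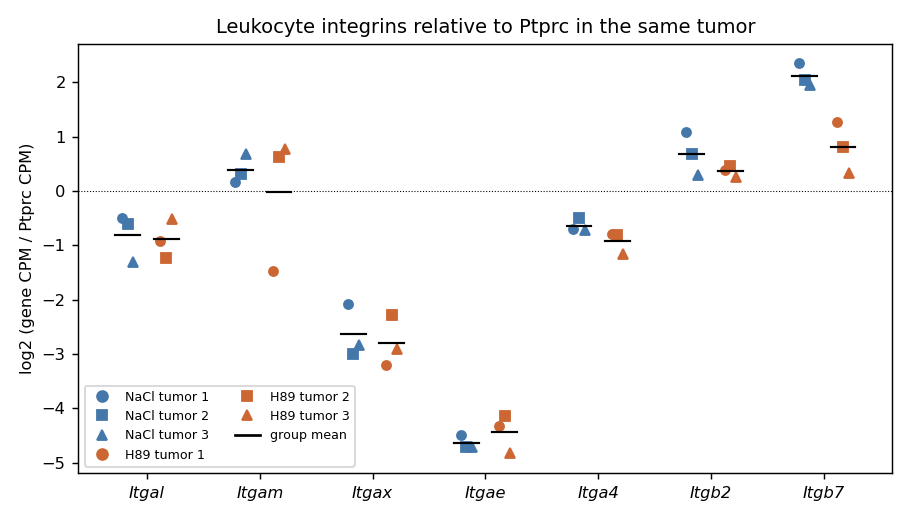
Log2 ratio of the CPM of each of 7 leukocyte integrins to the CPM of Ptprc in the same tumor, with 1 symbol per tumor and a line at each group mean. The mean for Itgb7 is 2.12 over the NaCl tumors against 0.81 over the H89-treated ones, and in the other genes apart from Itga4 the groups overlap.

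Among the 18 integrin subunits outside the leukocyte group, 14 were tested and none passed an unadjusted p under 0.05, beside 25% of all genes. The median log2 fold change of the 14 was -0.04, with a range of -0.33 to 0.53, 6 values above 0 and 8 below. In all 14 the groups overlapped, while 30.7% of all genes tested did not overlap. The widest 95% interval in this group ran from -0.50 to 1.04 (Itga10), and the narrowest from -0.27 to 0.17 (Itga5).

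The laminin-binding subunits Itga3, Itga6, Itga7 and Itgb4 had log2 fold changes between -0.14 and 0.23. Itgb4, which pairs with alpha6 in the hemidesmosomes of epithelia, was the highest of them in CPM, at 305, 226 and 169 in NaCl and 364, 235 and 224 in H89-treated tumors. NaCl tumor 1 and H89 tumor 1 were each the highest of their group. The log2 fold change was 0.23 with a 95% interval of -0.34 to 0.81. In the collagen-binding subunits, Itga10 was the highest, at 5.37, 12.0 and 15.5 CPM in NaCl and 14.6, 13.3 and 11.6 CPM in H89-treated tumors. NaCl tumor 1 alone stood below the rest, and the log2 fold change was 0.27 ± 0.33 (SE). Itga1 differed by 0.14 ± 0.25, and Itga2 (6 to 21 counts) and Itga11 (1 to 15 counts) were below the limit for testing.

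Itgb1, the shared beta subunit of most matrix-binding integrins, was at 563, 587 and 651 CPM in NaCl and 519, 598 and 612 CPM in H89-treated tumors. The 2 ranges overlapped from 563 to 612 CPM, and the log2 fold change was -0.06 with a 95% interval of -0.29 to 0.17. The alpha5 subunit of the fibronectin receptor (Itga5) differed by -0.05 ± 0.09, and Itgb5, a partner of alphav, by -0.04 ± 0.12. Itgav was at 80.5 to 98.0 CPM in NaCl and 80.6 to 126 CPM in H89-treated tumors (0.25 ± 0.16). Itgb8, which with alphav activates latent TGF-beta, had the highest value of the group, 0.53 ± 0.33, and Itga9 differed by -0.29 ± 0.19.

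The platelet integrin subunits Itga2b and Itgb3 differed by -0.07 ± 0.16 and -0.33 ± 0.27. Itgb3 was at 10.8 to 11.04 CPM in NaCl, and the H89-treated tumors lay both below and above that range, from 5.53 to 12.7 CPM. Its log2 fold change was -0.71 without H89 tumor 3 (edgeR unadjusted p = 0.0066, adjusted p = 0.129) and -0.09 without H89 tumor 1. The summed level of 8 platelet genes was 23.8 to 39.3 CPM in NaCl and 12.8 to 19.2 CPM in H89-treated tumors, with no overlap. Most of that sum was Pf4, at 31.7, 19.1 and 25.3 CPM in NaCl and 10.5, 15.0 and 9.15 CPM in H89-treated tumors. Gp1ba (log2 fold change -0.47) and Gp1bb (0.04) overlapped between the groups. Of the 4 tested platelet genes, 2 had an unadjusted p under 0.05, both lower, beside 11.9% lower of all genes. The part of the platelet genes in the values of Itga2b and Itgb3 was not tested. Itga8 (3 to 45 counts) and Itgb6 (7 to 16 counts) were too low to test.

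**Figure D3:**
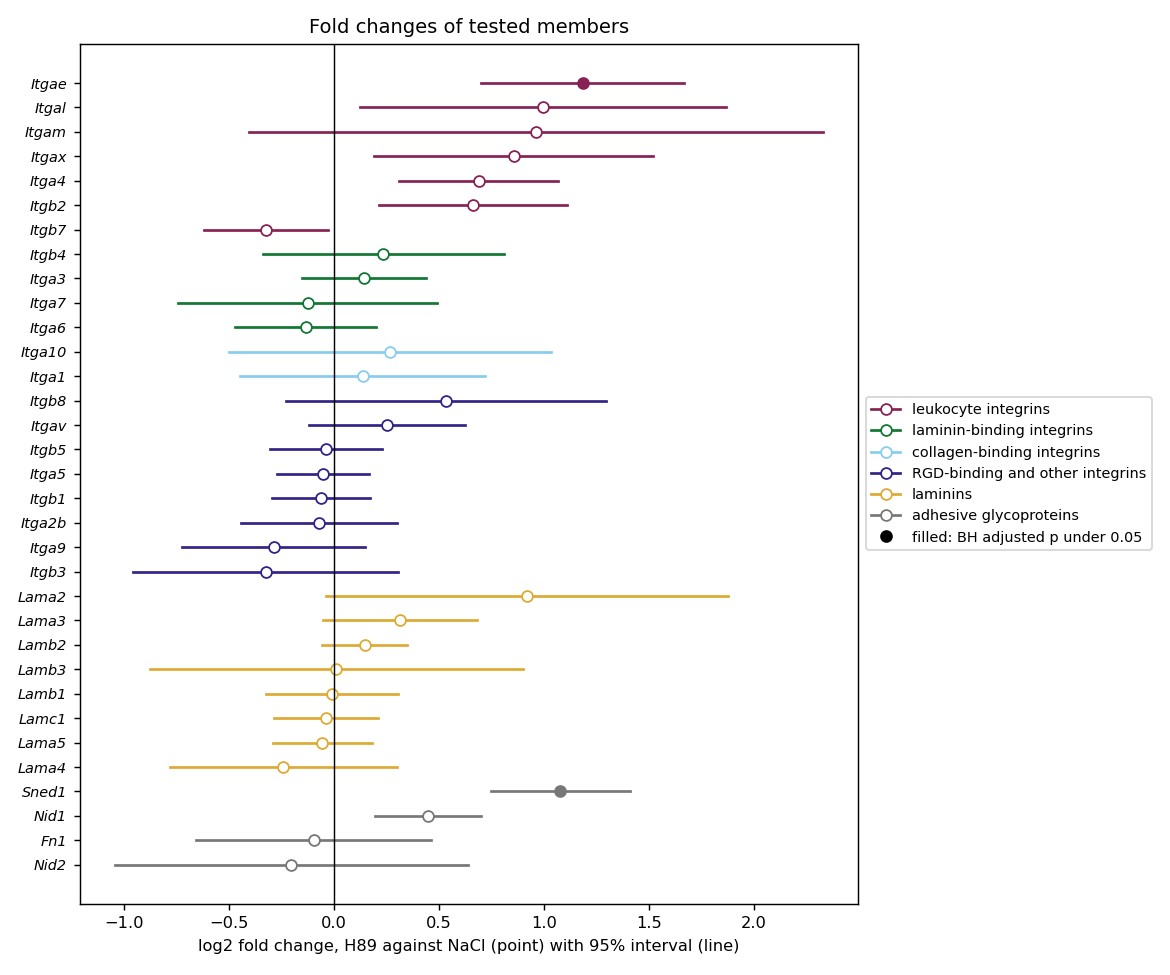
Log2 fold change of H89 against NaCl (points) with 95% intervals (lines) for the tested members shown, coloured by subgroup, with filled points where the adjusted p is under 0.05. The filled points are Itgae (1.18) and Sned1 (1.08), and every interval drawn for the laminins and for the integrins outside the leukocyte group includes 0.

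Among the 11 laminin chains, 9 were tested and none passed an unadjusted p under 0.05, beside 25% of all genes. The median log2 fold change of the 9 chains was -0.01, with 4 values above 0 and 5 below. In each chain class the most abundant member differed between the groups by less than its spread. Lama5 was at 459.9, 403 and 489.7 CPM in NaCl and 401, 454 and 445 CPM in H89-treated tumors, with a 95% interval for the log2 fold change of -0.29 to 0.18. Lamb1 was at 274, 278 and 345 CPM in NaCl and 251, 333 and 308 CPM in H89-treated tumors (-0.32 to 0.31). Lamc1 was at 384, 352 and 379 CPM in NaCl and 312, 380.0 and 395 CPM in H89-treated tumors (-0.29 to 0.21). H89 tumor 1 was the lowest of the 6 tumors for all 3 chains.

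Per kilobase of merged exons, these 3 chains of laminin-511 were also the highest laminin chains. Over the 6 tumors Lamc1 stood at 44.4 ± 3.69 CPM per kilobase (SD), Lama5 at 38.8 ± 3.03 and Lamb1 at 30.1 ± 3.71. The ranges of Lamc1 and Lama5 overlapped, and the highest Lamb1 value (34.8) was just below the lowest Lama5 value (35.2). Lamb2 was lower, at 14.9 ± 1.19 CPM per kilobase. Lama3 and Lamb3, found in epithelial basement membranes, stood at 1.13 ± 0.20 and 0.08 ± 0.02 CPM per kilobase.

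Lama2, the alpha chain of muscle and nerve basement membranes, had the highest log2 fold change of the chains, 0.92 ± 0.41 (edgeR unadjusted p = 0.0574). It was at 0.755 to 1.83 CPM in NaCl and 1.93 to 3.98 CPM in H89-treated tumors, with no overlap. The fold change was 0.49 without H89 tumor 2, 0.62 without NaCl tumor 1 and 1.03 without NaCl tumor 3. Without NaCl tumor 2, H89 tumor 1 or H89 tumor 3 it was 1.16, 1.10 and 1.08. The edgeR unadjusted p-values of those last fits were 0.0481, 0.044 and 0.0457. H89 tumor 1, which stood apart in muscle genes, was at 1.93 CPM, and H89 tumors 2 and 3 were at 3.98 and 2.01 CPM. The part of muscle in the Lama2 values was not tested. Lama3 differed by 0.31 ± 0.16, Lamb2 by 0.15 ± 0.09, Lamb3 by 0.01 ± 0.38 and Lama4, a chain of vessel walls, by -0.24 ± 0.23. Lama1 had 0 counts in all 6 tumors, which allows up to 3 counts, or 0.0939 to 0.111 CPM before TMM scaling, in a tumor. Lamc3, with 5 to 15 counts, was not tested.

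**Figure D4:**
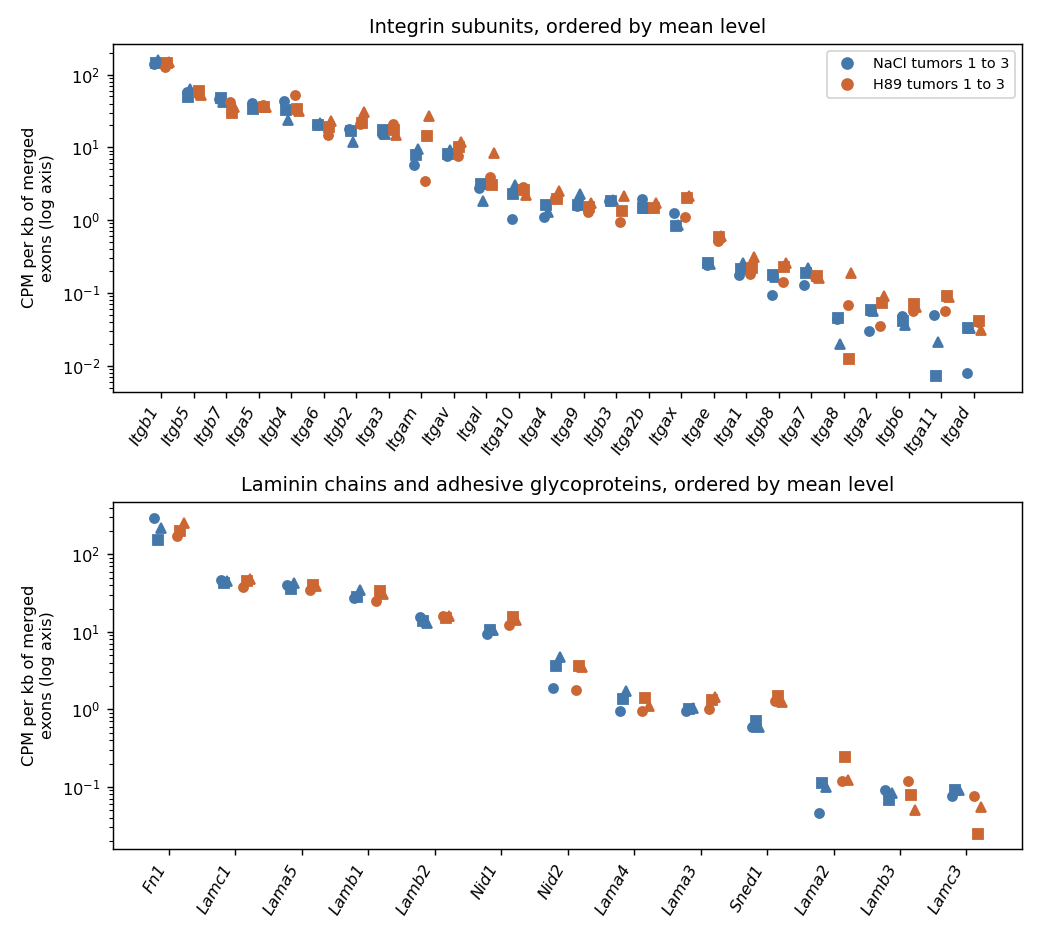
CPM per kilobase of merged exons on a log axis for the integrin subunits (upper panel) and for the laminin chains and glycoproteins (lower panel), ordered by their mean over 6 tumors, with 1 point per tumor and Lama1, at 0, not drawn. Itgb1 (mean 144) and Fn1 (mean 217) lead their panels, and Sned1 and Itgae stand in the lower part of theirs.

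In the order of levels per kilobase, the beta subunits ran from Itgb1 at 144 ± 10.97 CPM (SD over 6 tumors) to Itgb5 at 56.2 ± 5.5, Itgb7 at 40.5 ± 6.54, Itgb4 at 36.2 ± 9.88 and Itgb2 at 19.8 ± 6.37. Itgb1 was above all others in every tumor, while the ranges of Itgb7 and Itgb4 overlapped. The alpha subunits were led by Itga5 at 37.1 ± 2.58, followed by Itga6 at 19.9 ± 2.72, Itga3 at 16.8 ± 2.21 and Itgav at 9.02 ± 1.69, apart from Itgam at 11.3 ± 8.5 with its wide spread. Itga6 and Itga3 overlapped in range.

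Sned1 was the member with the smallest p-value. Its level was 5.62, 6.72 and 5.65 CPM in NaCl and 12.2, 13.9 and 11.8 CPM in H89-treated tumors. Every H89-treated tumor was above every NaCl tumor, and the gap between the groups was wider than the range of either. The log2 fold change was 1.08 ± 0.14 (edgeR adjusted p = 0.0407), and it stayed between 1.00 and 1.17 when any 1 tumor was left out, with adjusted p-values of 0.0663 to 0.142. Sned1 (chr1:93235841-93301065, plus strand, GRCm38) shares exonic positions with Mterf4 on the other strand, and its values were up to 0.48 of a count from whole numbers, as where reads are divided between transcripts. Mterf4 was at 20.2 to 25.0 CPM in NaCl and 22.3 to 27.1 CPM in H89-treated tumors, with a log2 fold change of 0.17 ± 0.13, and how many reads the 2 genes share was not tested.

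Nid1, which bridges laminin and collagen IV, was at 64.8, 74.0 and 73.3 CPM in NaCl and 84.2, 108 and 97.6 CPM in H89-treated tumors. The groups did not overlap, and the log2 fold change was 0.45 ± 0.11 (edgeR unadjusted p = 0.0035, adjusted p = 0.0765), with unadjusted p-values of 0.000867 to 0.0153 when 1 tumor was left out. Its paralog Nid2 was at 9.84 to 24.4 CPM in NaCl and 9.13 to 18.9 CPM in H89-treated tumors, with a log2 fold change of -0.20 ± 0.36. Fn1 was at 3491, 1788 and 2593 CPM in NaCl and 2006, 2374 and 2979 CPM in H89-treated tumors. NaCl tumors 1 and 2 were the highest and the lowest of the 6, and the log2 fold change was -0.10 with a 95% interval of -0.66 to 0.46. The summed level of 8 fibroblast genes was 2514 to 2757 CPM in NaCl and 2811 to 3586 CPM in H89-treated tumors, without overlap. Col1a2 alone gave most of each sum, at 1410 to 1488 CPM in NaCl and 1598 to 1995 CPM in H89-treated tumors. Of the 8 fibroblast genes 3 were higher (Col1a2, Col3a1 and Dcn) and 1 was lower (Pdpn) at an unadjusted p under 0.05. The groups overlapped for Col1a1, Pdgfra, Lum and Fap. In all genes tested, 13.1% were higher and 11.9% lower. The part of the fibroblast genes in the values of Sned1 and Nid1 was not tested.

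Over the 34 tested members, all H89-treated tumors lay above all NaCl tumors in 6 (Itgae, Itga4, Itgb2, Lama2, Nid1 and Sned1) and below them in 0, and 28 overlapped. In all genes tested, 15.2% lay above and 15.4% below. Without the TMM factors the members counted 8 above and 0 below, beside 20.5% above and 10% below in all genes, so that 67.2% of the non-overlapping genes were higher, against 49.7% with the factors.

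The intracellular side of integrin adhesion was described with 37 genes for activators such as talins, kindlins and Rap1 and for focal adhesion adaptors. Of 36 tested, 1 was lower and 0 were higher at an adjusted p under 0.05, and 3 were higher and 6 lower at an unadjusted p under 0.05, beside 13.1% higher and 11.9% lower of all genes. Their median log2 fold change was -0.04. The gene past the adjusted threshold was Pxn, which encodes the focal adhesion scaffold paxillin. It was at 263, 264 and 266 CPM in NaCl and 166, 183 and 196 CPM in H89-treated tumors. NaCl tumors agreed within 3 CPM and all H89-treated tumors were lower, with a log2 fold change of -0.54 ± 0.09 (edgeR adjusted p = 0.0407).

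Other ligands and receptors were described with 31 genes, of which 29 were tested. At an adjusted p under 0.05, 1 was higher and 0 were lower, and at an unadjusted p under 0.05, 9 were higher and 3 lower, beside 13.1% and 11.9% of all genes, with a median log2 fold change of 0.06. Fbn1, which encodes the microfibril protein fibrillin-1, was at 13.6, 12.2 and 13.8 CPM in NaCl and 21.5, 25.7 and 19.7 CPM in H89-treated tumors. The groups did not overlap, and the log2 fold change was 0.76 ± 0.13 (edgeR adjusted p = 0.0443). The counter-receptors of the leukocyte integrins were looked up after the values had been seen. Icam1, the ligand of LFA-1, was at 12.6 to 16.5 CPM in NaCl and 18.6 to 22.9 CPM in H89-treated tumors (log2 fold change 0.52 ± 0.14, edgeR adjusted p = 0.0861). Icam2, another ligand of LFA-1, was at 5.47 to 8.04 CPM in NaCl and 5.81 to 6.84 CPM in H89-treated tumors (-0.19 ± 0.19, edgeR adjusted p = 0.558). Vcam1, the ligand of alpha4beta1, was at 175 to 187 and 223 to 296 CPM (0.48 ± 0.12, adjusted p = 0.0813). Cdh1, the E-cadherin gene whose product binds alphaEbeta7, was at 1.05 to 2.84 and 1.12 to 2.37 CPM (0.05 ± 0.45), and Madcam1 was below the limit for testing.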

How the data were processed

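RNA of 6 whole CT26 tumors, 3 from NaCl and 3 from H89-treated mice, was sequenced on a BGIseq500. The authors deposited 1 table of 23557 genes whose name says TPM. Its columns sum to 27067349 to 31958793, and 58.6% to 61.4% of the values above 0 lie within 0.01 of a whole number, so the deposited values were taken as estimated counts. The submitters' processing notes name kallisto, DESeq2 and GRCm38, with versions and annotation not given in the sources used here.

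The estimated counts were rounded and genes with a mean of at least 0.5 CPM were kept (13118 genes). Treatment was fitted with edgeR 4.0.16 (TMM, quasi-likelihood F-test, R 4.3.3), and p-values were adjusted by Benjamini and Hochberg over all genes tested. CPM values were divided by the TMM factors. The fit was tested on simulated data. Exon lengths and positions are from GENCODE M21. The edgeR p-values weigh the difference between groups against the spread between tumors, estimated with information from all genes tested. Intervals are at 95%. Ratios to Ptprc used an exact permutation test.

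Values of all 6 tumors are given for members with an adjusted or unadjusted p under 0.05 and for the highest member of each subgroup and chain class, and from each pathway list the genes past the adjusted threshold are named. The values of 1 member are not reported here, and it is left in the counts. Members and lists were chosen with earlier results of these data known. The alternatives tried were: all genes unfiltered, a minimum mean of 5 CPM, median ratio size factors, quantile normalization and voom (limma 3.58.1), DESeq2 1.42.0, a replicate block, each tumor left out, and Bonferroni adjustment; for ratios, 0.5 CPM added or a pan-leukocyte list.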

Additional observations from a re-analysis of the deposited data

How the results depend on the processing

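The direction of each of the 8 members with an unadjusted p under 0.05 was the same in every alternative in which it was fitted. The count of members past the adjusted threshold was 2 and became 1 with a mean of at least 5 CPM (Sned1; Itgae was not fitted), 1 with quantile normalization (Sned1), 6 with DESeq2 (Itgax, Itgae, Itga4, Itgb2, Nid1 and Sned1), 0 with the replicate block and 0 with Bonferroni adjustment. Over all genes the calls were 208 in the reported fit, 197 with a mean of at least 5 CPM, 80 with quantile normalization, 1392 with DESeq2 and 0 with the block. With quantile normalization the log2 fold change of Itgae was 0.67 (adjusted p = 0.0905), against 1.18. The members' count was 0 in each fit that left out 1 tumor, where the calls over all genes fell from 208 to between 0 and 12. The pathway genes past the threshold numbered 2 and became 0 with quantile normalization, 11 with DESeq2, 0 with the block and 0 in every fit without 1 tumor, beside the same counts over all genes. At an unadjusted p under 0.05, leaving out 1 tumor gave 5 to 11 higher members (11 without H89 tumor 1, when Itgam, Itgav, Lama2 and Lama3 also passed) and 0 to 2 lower members (0 without NaCl tumor 1 or H89 tumor 2, 2 without H89 tumor 3). It gave 5 to 8 lower pathway genes, against 9 in all tumors, with 5 without NaCl tumor 1 or H89 tumor 2. Without H89 tumor 3, Itgb3 was among the lower members.

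The median log2 fold change of the other integrins was 0.13 without a filter and 0.12 with DESeq2, both over more genes, and that of laminins and glycoproteins was 0.13 with quantile normalization. The median difference in log2 ratio to Ptprc, -0.28, was 0.30 with the pan-leukocyte list and -0.36 to -0.071 without 1 tumor (-0.071 without H89 tumor 1). Signs of genes near 0 turned: with quantile normalization Itgb1 was 0.13, Lama5 0.13, Lamb1 0.10, Lamc1 0.071 and Fn1 0.24, and with a mean of at least 5 CPM Lamb1 was 0.024. Without 1 tumor, Itgb4 ranged from -0.023 to 0.47, Itga10 from -0.062 to 0.60, Itgb1 from -0.11 to 0.0090, Lama5 from -0.13 to 0.0067, Lamb1 from -0.10 to 0.11, Lamc1 from -0.11 to 0.060 and Fn1 from -0.31 to 0.16. The cause of these changes was not tested.

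The labels do not say whether the replicate numbers pair the tumors. The deviations of same-numbered tumors correlated at 0.16, 0.06 and -0.03, and not every tumor correlated best with its own number. With 3 tumors per group these correlations cannot decide whether tumors were paired. With the replicate block 0 members and 0 pathway genes passed edgeR's adjusted threshold. At an unadjusted p under 0.05, 7 members were higher and 1 lower with the block. These counts equal those of the reported fit, but Itgb4 and Lama2 stood in place of Itgal and Itgax. Lama2 also passed the unadjusted threshold with DESeq2 and without a filter, Itga11 without a filter and Lamb2 with quantile normalization. Itgal did not pass it with quantile normalization, voom or DESeq2. The 7 untested members were below the mean of 0.5 CPM required for testing.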
